A study of Bos taurus with 30 samples.

Results

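The miRNAs described here are 9 mature miRNAs that are enriched in nerve cells: bta-miR-124a, both arms of miR-9 (bta-miR-9-5p and bta-miR-9-3p), bta-miR-128, bta-miR-137, bta-miR-138, bta-miR-153 and both arms of miR-129 (bta-miR-129-5p and bta-miR-129-3p). The prefix bta, for Bos taurus, is left out in what follows. They were chosen by name, not by their values, and fill 11 of the 863 rows that held a read in at least 1 library. The values of miR-124a and miR-124b were the same in every library, as were those listed as miR-129 and miR-129-5p, so each of these pairs was counted once. Small RNA was sequenced from the hypothalamic arcuate nucleus (ARC) of 30 Holstein-Friesian bull calves, 15 on a high (HI) and 15 on a moderate (MOD) plane of nutrition, with 1 library per calf. The diets were fed from 2 to 12 weeks of age, when tissue was taken. HI calves were given 1.5 kg of milk replacer in 10 litres per day with concentrate at will, and MOD calves 0.5 kg of milk replacer in 4 litres per day with 0.5 kg of concentrate. No calf was untreated, and sex and breed were shared by all. The comparison of the diets addresses whether early nutrition alters the miRNA of a region that senses metabolic status.

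A miRNA is cut as a duplex from a hairpin precursor, and either strand of the duplex, the 5p or the 3p arm, can be loaded into an Argonaute protein and repress mRNAs that pair with its seed. In the brain, miR-124 is abundant in neurons and is known for repressing non-neuronal genes as neurons differentiate, together with miR-9, which acts in neural progenitors and on the REST repressor complex. Of the others, miR-128 is known for damping neuronal excitability, miR-137 and miR-138 for roles at synapses and in dendritic spines, miR-153 for repressing proteins of vesicle release, and miR-129 for acting on ion channels and synaptic scaling.

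RefSeq lists 14 precursor genes for these miRNAs in the ARS-UCD2.0 assembly. Since the reads were aligned to ARS-UCD1.2, neighbours are given without coordinates. Several precursors lie in genes of neurons or secretory cells: both for miR-153 overlap receptor-type phosphatase genes of secretory granules (MIR153-1 in PTPRN, MIR153-2 in PTPRN2), and those for miR-128 overlap R3HDM1 (MIR128-1) and ARPP21 (MIR128-2). MIR9-2 overlaps a long non-coding RNA between TMEM161B and MEF2C, a transcription factor gene of neurons. MIR124A-1 and MIR138-1 also overlap long non-coding RNAs, whereas MIR137 overlaps no listed gene and lies between SNX7 and DPYD. MIR129-1 overlaps no listed gene and lies between SND1 and LEP, the gene of the hormone leptin. RefSeq lists more than 1 precursor for each of these miRNAs except miR-137, and reads of a mature miRNA were not assigned to a locus here.

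Values are CPM over library sizes scaled between libraries (TMM), so that the values of a library summed to between 825695 in HI calf 11 and 1429908 in HI calf 7 and are not shares of its reads. The percentage of a library's miRNA reads is given where it changes a statement, and either quantity is relative to the other miRNAs of the library. Each library held between 6291376 and 21083250 reads of miRNAs. The libraries fell into a shallower class of 21 and a deeper class of 9, with 3 HI and 6 MOD calves in the deeper one. No member differed between the depth classes in a model with diet, where 0 of 476 miRNAs tested (0.0%) were called. The 9 calves with the lowest animal codes (7 HI and 2 MOD) were also set against the other 21 (8 HI and 13 MOD). This class was found from the data, and the labels give no date, run or farm for it. Values did not overlap between these classes for 7 of 474 miRNAs (1.48%), while every member overlapped. In addition, 9 calves (5 HI and 4 MOD) had high levels of miRNAs known from the pituitary, which adjoins the ARC. The values within these splits are given beside the results they touch.

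All 9 members were read in all 30 libraries, as brain tissue would have them, although none of them is particular to the ARC. Each had many reads, with at least 714 per library, the lowest being miR-9-3p in HI calf 7. Together they took 1.36% of miRNA reads in HI calf 7 and 8.98% in HI calf 10, with a median of 6.77%. The share was 6.29% ± 2.15 (SD, n = 15) in HI calves and 6.28% ± 1.59 (SD, n = 15) in MOD calves, a difference of 0.0086 percentage points (two-sided permutation test, p = 0.99).

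Most of these reads were miR-9-5p, which ranked 4 among all miRNAs by median level. It had 11292 CPM in HI calf 7, the lowest, a median of 44294 CPM, and 73041 CPM in HI calf 3, the highest. The next member, miR-124a (rank 31), ran from 826 CPM in HI calf 7 through a median of 6356 CPM to 9705 CPM in HI calf 1. These extremes are 11.8-fold apart, the widest range among the 9, followed by the 10.1-fold range of miR-138. Below them in the order of median levels were miR-128 (3066 CPM), miR-153 (2589 CPM), miR-138 (1758 CPM), miR-129-5p (1730 CPM), miR-129-3p (1273 CPM), miR-9-3p (685 CPM) and miR-137 (562 CPM). Levels of different miRNAs also depend on how well each is ligated and amplified, so this is an order of reads. Within calves, 7 of the 8 neighbouring pairs in the order differed (sign-flip permutation test, two-sided, adjusted p between 1.33e-05 and 0.00281). The weakest of these was miR-128 above miR-153, in 21 of 30 calves. The exception was miR-138 against miR-129-5p, where miR-138 was higher in 16 of 30 calves (adjusted p = 0.55).

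The members differed in how much they varied between calves. The SD of log2 CPM over the 30 calves was 0.79 for miR-138 and 0.78 for miR-124a, larger than that of over 90% of tested miRNAs. It was lowest for miR-153 (0.31), whose values stayed between 1486 and 3340 CPM. Nearly all the lowest values belonged to 1 animal: HI calf 7 was lowest of the 30 for miR-124a, miR-9-5p, miR-9-3p, miR-128, miR-137, miR-138 and miR-153, both in CPM and as a percentage of reads. It was highest for miR-129-5p in CPM (2901 CPM) but not as a percentage of reads (0.203%), where HI calf 8 was highest.

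**Figure D1:**
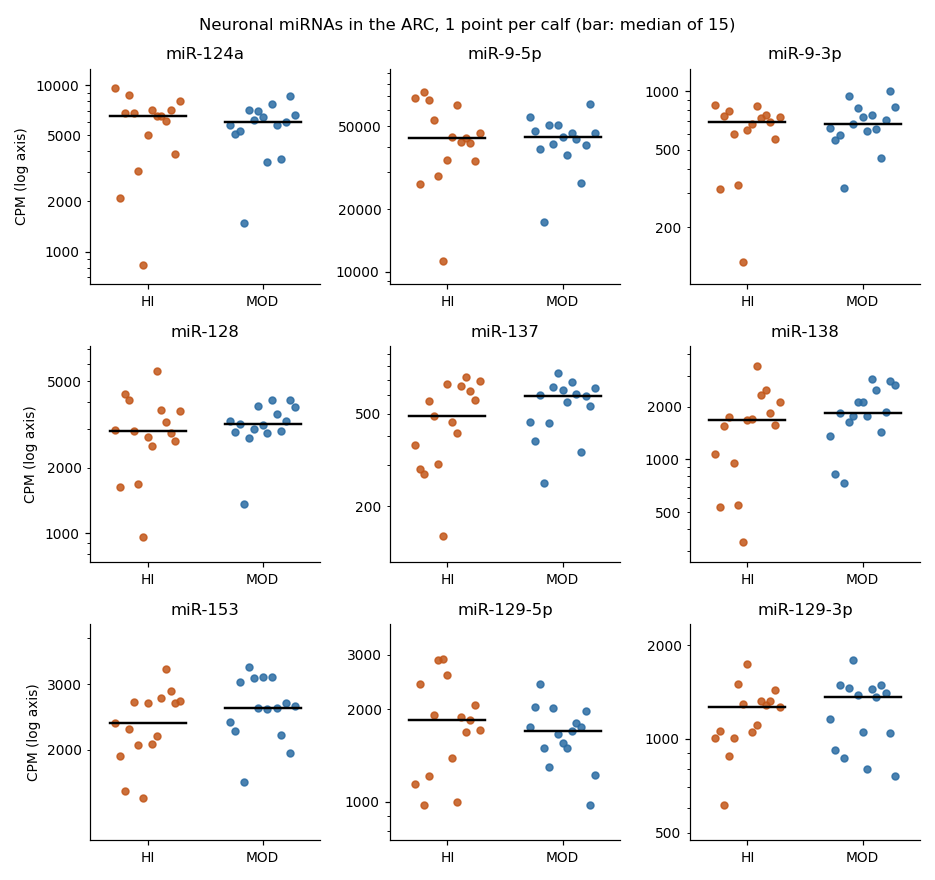
Level of each of the 9 neuronal miRNAs in every calf, in CPM on a log axis, for HI (n = 15) and MOD (n = 15) calves; each point is a calf and the horizontal lines are group medians. The diets overlap in every panel, and HI calf 7 has the lowest point in 7 of the 9.

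None of the 9 members differed between the diets. A call in limma's moderated model on log2(CPM + 0.25) needed a fold change above 1.5 with an adjusted p under 0.1, which was met by 0 of 476 miRNAs tested (0.0%). At an unadjusted p under 0.05 the counts were 0 of 9 members and 21 of 476 miRNAs (4.41%). By edgeR's quasi-likelihood test on recovered reads the count over all miRNAs was again 0, and by DESeq2 it was 1, which was miR-2419-3p and no member. Of the 9, 8 were lower in HI calves by mean log2 level, with a median log2 fold change of -0.15, against -0.0022 over all 476, of which 235 were higher in HI calves. The count among the members moved with single calves and with the model. Without HI calf 7, 6 were lower and the median was -0.05, and without HI calf 2 these were 6 and -0.10. Without MOD calf 4, 8 were lower and the median was -0.20, and without both HI calf 7 and MOD calf 4 these were 7 and -0.13. With the code class as a term 4 were lower and the median was 0.0057, and with the pituitary score as a term these were 6 and -0.08. The members are not independent of each other, since they share their libraries.

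For miR-124a, HI calves ran from 826 through a median of 6547 to 9705 CPM, and MOD calves from 1492 (MOD calf 4) through 6040 to 8664 CPM. The groups overlapped over almost their whole range. The log2 fold change, HI minus MOD, was -0.07 (SE 0.28, 95% interval -0.64 to 0.50, limma adjusted p = 0.984), and its sign turned when HI calf 7 was left out (0.12). For miR-9-5p, the medians were 43906 CPM in HI and 44681 CPM in MOD calves, and the log2 fold change was -0.01 (SE 0.21, 95% interval -0.43 to 0.41, limma adjusted p = 0.986). Its sign turned in 12 of 30 runs that left out 1 calf (-0.0996 to 0.1254). As folds of HI over MOD, the intervals run from 0.642 to 1.41 for miR-124a and from 0.744 to 1.33 for miR-9-5p.

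The largest difference among the members was that of miR-138, which ran from 336 through 1673 to 3407 CPM in HI calves and from 738 through 1838 to 2890 CPM in MOD calves. Its log2 fold change was -0.38 (SE 0.27, 95% interval -0.94 to 0.17, limma adjusted p = 0.912). Next was miR-137, with medians of 490 CPM in HI and 595 CPM in MOD calves and a log2 fold change of -0.23 (SE 0.19, limma adjusted p = 0.974). Both differences lay along the animal codes: with the code class as a term in the model they were 0.0084 and 0.0057 on the log2 scale. Within the 9 lowest codes miR-138 differed by -0.35 between the diets (exact permutation test, p = 0.667), and within the other 21 by 0.12 (p = 0.595). Irrespective of diet, miR-138 had a median of 952 CPM (336 to 1752) in the 9 lowest codes and 1870 CPM (738 to 3407) in the others. For miR-137 these medians were 368 and 608 CPM. The 9 lowest codes include 4 of the 9 calves with high levels of pituitary miRNAs. Among the 21 calves without them, miR-138 had a median of 1370 CPM (952 to 1752) in 5 calves with the lowest codes. In the other 16 it was 2136 CPM (1647 to 3407), and these ranges overlap. Because the code class was found from the values of all miRNAs, no test is given for it. The lowest codes hold 7 HI and 2 MOD calves and the others 8 HI and 13 MOD, so diet and code class cannot be fully told apart.

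Of the remaining members, miR-9-3p differed by -0.21 (SE 0.21), miR-128 by -0.15 (SE 0.19), miR-153 by -0.15 (SE 0.11) and miR-129-3p by -0.04 (SE 0.13) on the log2 scale, and miR-129-5p was the single member with a higher mean log2 level in HI calves (0.08, SE 0.15). Without HI calf 7, the log2 fold change was -0.06 for miR-9-3p, -0.04 for miR-128, -0.12 for miR-137 and -0.24 for miR-138. Over all runs that left out 1 calf, their lowest values were -0.29, -0.24, -0.31 and -0.48, in the same order. With all calves, the adjusted p-values of the 5 remaining members from limma lay between 0.912 and 0.984. The narrowest interval was that of miR-153, from -0.37 to 0.08.

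**Figure D2:**
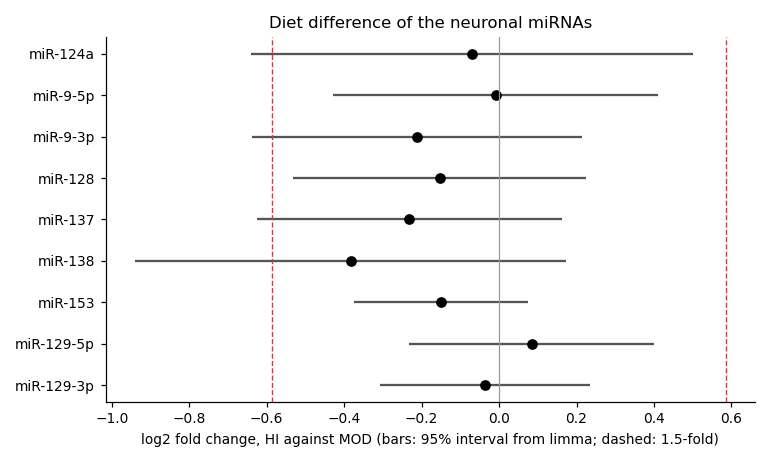
Log2 fold change, HI minus MOD, of each neuronal miRNA with its 95% interval from limma (n = 15 and 15). Every interval crosses 0, and the widest are those of miR-124a and miR-138.

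Among other miRNAs known from neurons, 20 of 21 listed were tested, 12 of them higher in HI calves by mean, with a median log2 fold change of 0.02 and 0 called. The one with the smallest p was miR-379, of the large imprinted miRNA cluster of the brain (log2 fold change 0.12, SE 0.09, limma adjusted p = 0.912). The lists of other cell types also had 0 called. These lists covered the pituitary (8 of 10 tested, all 8 higher in HI by mean, median 0.64, smallest p for miR-200a), oligodendrocytes (3 of 4 tested, median 0.12, miR-219-3p), vessels (8 tested, median -0.11, miR-145), ependyma and choroid plexus (7 tested, median -0.34, miR-449b), leukocytes and microglia (6 tested, median -0.05, miR-150), and erythroid cells (3 tested, median 0.03, miR-486). Only miR-145, a miRNA of smooth muscle and pericytes, had an unadjusted p under 0.05 (p = 0.00797, limma adjusted p = 0.878).

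HI calf 7, the lowest for 7 of the neuronal miRNAs, also had the most pituitary miRNA of the 30 calves. The lowest values of the arms of miR-129 were in calves with little of it, MOD calf 14 for miR-129-5p and HI calf 3 for miR-129-3p. The list of pituitary miRNAs held 10 miRNAs of the pituitary and of endocrine epithelium, among them miR-7, miR-375 and the miR-200 family, and its score was their mean log2 level. Scores fell into 2 ranges, from 7.41 to 11.1 in 9 calves and from 2.75 to 5.35 in the other 21. The summed level of the 10 was 10003 to 100739 CPM in the former and 2289 to 7130 CPM in the latter. For miR-375, a miRNA of endocrine cells, the medians were 20624 and 606 CPM, and for miR-200a, a miRNA of epithelium, 662 and 2.20 CPM. In the 21 calves, miR-200b and miR-96 were at 0 in at least 1. By diet the summed level overlapped, from 2325 to 100739 CPM in HI calves and from 2289 to 84373 CPM in MOD calves.

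In the 9 calves with high scores, 8 members had lower medians in CPM than in the other 21, where 252 of 474 miRNAs (53.2%) did. As a percentage of reads the same count was 8 members and 346 of 474 miRNAs (73.0%). The median of miR-138 was 821 CPM (336 to 1764) against 1870 CPM (952 to 3407), a ratio of 0.44. That of miR-124a was 3478 CPM (826 to 7058) against 6601 CPM (5013 to 9705), a ratio of 0.53. For miR-9-5p it was 28948 CPM (11292 to 47439) against 46321 CPM (34503 to 73041), a ratio of 0.62. The ratios were 0.56 for miR-137, 0.61 for miR-9-3p, 0.76 for miR-128 and 0.78 for miR-153. Of the 9 calves, 7 lay below all 21 others for miR-124a and for miR-9-3p, and 6 did so for miR-9-5p and miR-128. For miR-138 5 did so, for miR-137 only 2 and for miR-153 only 1. Of the arms of miR-129, miR-129-3p had a median of 1057 against 1282 CPM, a ratio of 0.82, with none of the 9 calves below all others. The median of miR-129-5p was 2034 CPM against 1699 CPM, a ratio of 1.2, but 0.192% against 0.191% of reads, so that the difference depends on the scaling. As percentages of reads the ratios of the other 8 lay between 0.361 for miR-138 and 0.622 for miR-129-3p. The share of tested miRNAs with a lower ratio in CPM was 0.633% for miR-138, 1.69% for miR-124a, 4.22% for miR-137, 6.75% for miR-9-3p and 7.81% for miR-9-5p, and 25.3% or more for the other 4. Also lower in these calves were the median summed levels of the other miRNAs known from neurons (20110 against 25319 CPM) and of the oligodendrocyte list (2244 against 2976 CPM). In bulk tissue, fewer cells of a type and less RNA per cell cannot be told apart.

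Within the 9 calves, miR-9-5p fell as the pituitary score rose (Pearson r = -0.858, exact permutation p = 0.00237, adjusted p = 0.0155 over 72 relations, and Spearman rho = -0.933, exact p = 0.00075). The relation was also below 0.05 for miR-124a (r = -0.775, adjusted p = 0.0422, rho = -0.867, exact permutation tests) and miR-9-3p (r = -0.750, adjusted p = 0.0479, rho = -0.767, exact permutation tests). The unadjusted exact p-values of these 2 were 0.0123 and 0.0153 for r and 0.00451 and 0.0214 for rho, and for miR-9-3p rho failed the adjustment (adjusted p = 0.0575). Of 466 tested miRNAs, 1.50% had a lower r than miR-9-5p, 6.87% a lower r than miR-124a and 10.7% a lower r than miR-9-3p. Without the 2 calves farthest from the median score, r was -0.791, -0.687 and -0.754 for the 3 miRNAs. Without HI calf 7, r was -0.907, -0.756 and -0.781, with adjusted p-values of 0.025, 0.0977 and 0.0984 by the exact permutation test over 8 calves. The other 6 members did not pass, with r from -0.715 for miR-137 to 0.324 for miR-129-3p. With the code class means taken out, miR-128 (r = -0.771, adjusted p = 0.0348), miR-137 (r = -0.827, adjusted p = 0.0215) and miR-138 (r = -0.833, adjusted p = 0.0142) passed as well by the permutation test. That class was found from these data, and values were not permuted within it, so p-values after this centring can be too small. Within the 21 calves with low scores, none of the 9 relations passed, and r lay between -0.464 for miR-9-3p and 0.25 for miR-129-5p. The summed level of the vascular list was 57394 to 339641 CPM in the 9 calves and 49211 to 207576 CPM in the 21, ranges that overlap. Most of it was miR-143, of smooth muscle, with medians of 189730 and 86998 CPM, while the endothelial miR-126-3p had medians of 1995 and 2320 CPM and miR-126-5p of 17552 and 15868 CPM. Ranges did not overlap for miR-199a-3p (224 to 1420 CPM in the 9 and 57.4 to 203 CPM in the 21) and miR-199a-5p (38.9 to 272 and 8.13 to 36.3 CPM). Nor did they for miR-199b (54.8 to 412 and 18.5 to 47.6 CPM) and miR-214 (8.13 to 52.4 and 1.33 to 7.36 CPM). The mean log2 level of the vascular list had medians of 10.2 and 8.57. The part of either tissue in the levels of the neuronal miRNAs was not tested.

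**Figure D3:**
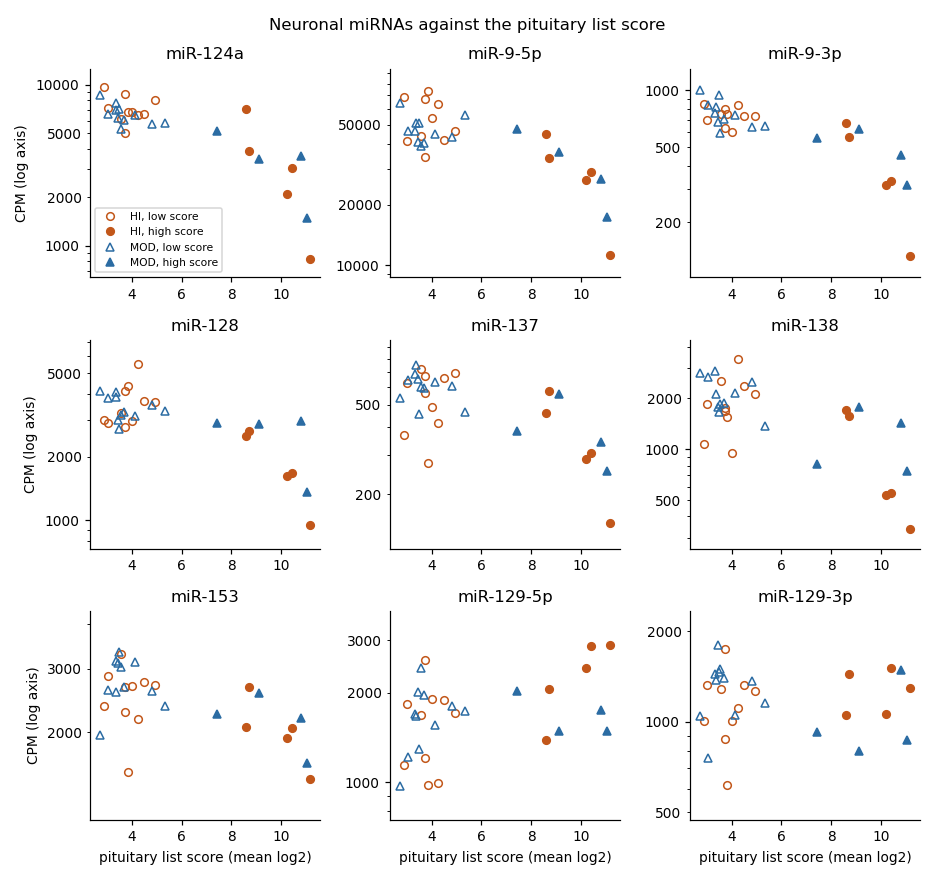
Level of each neuronal miRNA in CPM, on a log axis, against the calf's pituitary list score, the mean log2 level of 10 miRNAs of pituitary and endocrine epithelium (HI and MOD calves in separate colours, n = 30). The 9 calves with high scores (filled symbols) have lower medians for miR-124a, miR-9 and miR-138, with HI calf 7 lowest at the far right, and a higher median for miR-129-5p in CPM that is not there as a percentage of reads.

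Relations among the members were examined within each of the 2 ranges of pituitary score. They were not computed over all calves, where the gap between the ranges would enter. There were 36 pairs in each range and 72 in the family. Among the 9 calves with high scores, the 21 pairs that leave out miR-129 had r from 0.690 to 0.962, with a median of 0.886, where the median over all 112101 pairs of tested miRNAs was 0.013. Of these 21 pairs, 20 passed an adjusted p under 0.05 by the exact permutation test, and 21 of all 36 did. Of the 112101 pairs, 12.3% had an r at least as far from 0 as the weakest member pair that passed (0.766). The highest was miR-124a with miR-9-5p (r = 0.962, p = 0.000113, adjusted p = 0.00116, rho = 0.9, exact permutation test, and r = 0.844 without the 2 farthest calves). Without HI calf 7, 9 of 36 pairs passed in place of 21, and r of the 21 pairs that leave out miR-129 was 0.440 to 0.920. The exact p-values then rest on 8 calves, and r was still 0.575 to 0.824 in the 11 such pairs that no longer passed. The levels compared in a pair also share the scaling of each library.

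In the 21 calves with low scores, relations of both signs were found among the members. Of 36 pairs, 19 passed, 11 with positive and 8 with negative r, and the median r of the 36 was -0.12. Of all pairs of tested miRNAs, 11.7% had an r at least as far from 0 as the weakest that passed (0.525). Both arms of miR-9 and miR-124a rose together: r was 0.660 for miR-124a with miR-9-5p (adjusted p = 0.00472, rho = 0.636, permutation test) and 0.662 for miR-124a with miR-9-3p (adjusted p = 0.00472, rho = 0.669, permutation test). So did miR-137, miR-153 and both arms of miR-129, whose 6 pairs had r from 0.599 to 0.736. Of these 6, 4 failed the adjustment by rho, and without the 2 farthest calves r was 0.283 to 0.682. Between these 2 sets, all 12 values of r were negative and 6 passed, 4 of them of miR-9-5p. For miR-124a and miR-9-3p the relation to miR-129-5p passed (r = -0.642 and -0.795), while those to miR-137, miR-153 and miR-129-3p did not, with r from -0.405 to -0.202. The strongest relation of all was negative, between miR-9-5p and miR-129-5p (r = -0.863, permutation p = 1e-05, the smallest that the resamples can give, adjusted p = 0.00072, rho = -0.844, and r = -0.822 without the 2 farthest calves). The level of miR-129-5p was 978 CPM in HI calf 3 and 974 CPM in MOD calf 14, which had 73041 and 64310 CPM of miR-9-5p. Also negative were miR-9-5p with miR-137 (r = -0.751, adjusted p = 0.00108, rho = -0.578, permutation test) and with miR-153 (r = -0.738, adjusted p = 0.00108, rho = -0.627, permutation test). Without the 2 farthest calves these were -0.598 and -0.653, and those of miR-124a with the arms of miR-9 were 0.510 and 0.673.

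With miR-128, miR-138 passed in the positive direction (r = 0.605, adjusted p = 0.00901, rho = 0.543, permutation test, and r = 0.623 without the 2 farthest calves). For miR-128, r was also positive with miR-9-5p (0.525, adjusted p = 0.0285) and negative with miR-153 (-0.593, adjusted p = 0.0128) and miR-129-5p (-0.604, adjusted p = 0.00877) by the permutation test. By rho, miR-128 with miR-9-5p failed the adjustment (adjusted p = 0.0574). Without centring on the animal codes, the pair with miR-128 was the only one of the 8 pairs of miR-138 that passed. Unadjusted permutation p-values of the 6 relations printed with their rho for the 21 calves lay between 1e-05 and 0.00363 for r and between 1e-05 and 0.0115 for rho. After the mean of each animal code class was taken out, r of miR-128 with miR-138 was 0.895, and that of the 2 arms of miR-9 rose from 0.535 to 0.848. The relations of miR-9-5p to miR-129-5p, miR-137 and miR-153 kept their sign, at -0.939, -0.544 and -0.607. For miR-138 this centring gave 5 passing pairs in place of 1 by the permutation test. Its r turned from -0.181 to 0.621 with miR-9-5p (adjusted p = 0.00723), from 0.0743 to -0.531 with miR-153 (adjusted p = 0.0218) and from 0.111 to -0.577 with miR-129-3p (adjusted p = 0.012), and went from -0.188 to -0.625 with miR-129-5p (adjusted p = 0.00836).

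**Figure D4:**
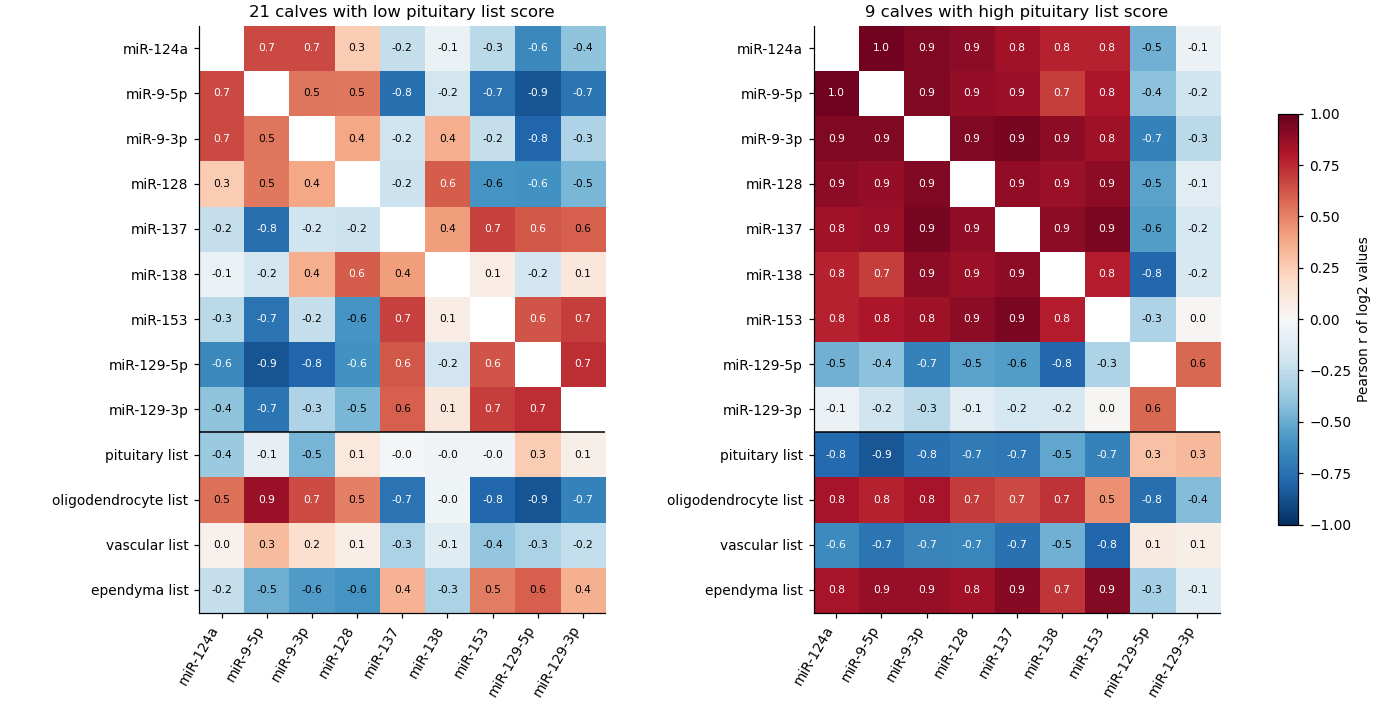
Pearson r of log2 levels between neuronal miRNAs (upper block) and between them and 4 cell type list scores (lower block), in the 21 calves with low pituitary list score (left) and the 9 with high score (right). On the left, miR-9-5p has negative r with miR-137, miR-153 and both arms of miR-129, while miR-9-3p and miR-124a pass with miR-129-5p alone of these; on the right, r is positive for all pairs without miR-129.

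In relation to oligodendrocyte miRNAs, 3 members passed with positive and 4 with negative r in the 21 calves with low pituitary scores. The oligodendrocyte list held miR-219, with both arms, and miR-338, miRNAs known for driving maturation of these myelin-forming cells. Its score was the mean log2 level of 4 rows, among them a separate row of miR-219 at only 0.221 to 1.66 CPM. Among the 21 calves the summed level of the list ran from 2176 to 13877 CPM, with the highest in HI calf 3, where miR-338 was at 10419 CPM. Rising with the list were miR-9-5p (r = 0.860, permutation p = 1e-05, the smallest possible, adjusted p = 0.00036, rho = 0.752), miR-9-3p (r = 0.653, adjusted p = 0.0118, rho = 0.705, permutation test) and miR-124a (r = 0.548, adjusted p = 0.0386, rho = 0.461, permutation test). Falling with it were miR-129-5p (r = -0.865, adjusted p = 0.00036, rho = -0.821, permutation test), miR-153 (r = -0.784, adjusted p = 0.00168, rho = -0.625, permutation test), miR-137 (r = -0.740, adjusted p = 0.00484, rho = -0.525, permutation test) and miR-129-3p (r = -0.679, adjusted p = 0.00854, rho = -0.575, permutation test). The unadjusted permutation p-values of these 7 lay between 1e-05 and 0.0102 for r and between 1e-05 and 0.0365 for rho, and by rho the adjustment was failed by miR-124a (adjusted p = 0.0781) and miR-137 (adjusted p = 0.0539). Neither miR-128 (r = 0.504, adjusted p = 0.0554) nor miR-138 (r = -0.0405, adjusted p = 0.893) passed in this permutation test. With the code class means taken out, miR-128 passed (r = 0.558, adjusted p = 0.0241), miR-124a did not (r = 0.477, adjusted p = 0.0574) and miR-138 turned to 0.472 (adjusted p = 0.0584) in the permutation test. Without the 2 calves farthest from the median list score, r was 0.804 for miR-9-5p, 0.702 for miR-9-3p, 0.595 for miR-124a, -0.809 for miR-129-5p, -0.556 for miR-153, -0.643 for miR-137 and -0.511 for miR-129-3p. Among the 471 miRNAs compared, the share with a lower r was 98.1% for miR-9-5p, 93.0% for miR-9-3p and 89.0% for miR-124a, and 1.49% for miR-129-5p, 5.10% for miR-153, 7.22% for miR-137 and 11.3% for miR-129-3p. The values of miR-124a and miR-129-3p were therefore not rare among miRNAs. In the 9 calves with high pituitary scores, 3 members passed with positive r by the exact permutation test. These were miR-124a (r = 0.821), miR-9-5p (0.773) and miR-9-3p (0.821), and miR-129-5p passed with negative r (-0.757). There r was positive for miR-137 (0.662) and miR-153 (0.455), which did not pass, opposite in sign to the 21 calves. None passed without HI calf 7, and the difference between the ranges was not tested.

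The ependyma list, of miR-34b, miR-34c, the miR-449 family, miR-204 and miR-211, was related to 3 members in these calves. These were miR-128 (r = -0.599, adjusted p = 0.0227, rho = -0.447, permutation test), miR-9-3p (r = -0.570, adjusted p = 0.029, rho = -0.535, permutation test) and miR-129-5p (r = 0.600, adjusted p = 0.0214, rho = 0.499, permutation test). Of 467 tested miRNAs, 1.71% had a lower r than miR-128, 2.57% a lower r than miR-9-3p and 98.5% a lower r than miR-129-5p. Unadjusted permutation p-values lay between 0.00357 and 0.00681 for r and between 0.0128 and 0.0434 for rho. By rho, miR-128 (adjusted p = 0.0869) and miR-129-5p (adjusted p = 0.0575) failed the adjustment of the permutation test. With the code class means taken out, miR-9-5p (r = -0.690, adjusted p = 0.00648) and miR-153 (r = 0.613, adjusted p = 0.0162) passed as well by the permutation test. Without the 2 farthest calves the 3 values of r weakened to -0.319, -0.356 and 0.359, so that they rest largely on those calves. No member passed with the vascular list in the 21 calves. In the 9 calves miR-153 did (r = -0.793, adjusted p = 0.0422, rho = -0.883, exact permutation test), but not without HI calf 7 (adjusted p = 0.0977 by the same test). Of 466 tested miRNAs, 7.08% had a lower r. By rho, miR-9-5p (-0.867, adjusted p = 0.0216) and miR-137 (-0.9, adjusted p = 0.0183) passed as well by the exact permutation test. In the 9 calves with high pituitary scores 6 members passed for the ependyma list by the exact permutation test, all with positive r. For miR-128 (r = 0.843, adjusted p = 0.0227, rho = 0.683, exact permutation test) and miR-9-3p (r = 0.868, adjusted p = 0.013, rho = 0.833, exact permutation test) the sign was thus opposite to that in the 21 calves, and by rho miR-128 failed the adjustment (adjusted p = 0.0953, exact permutation test). The difference between the 2 ranges of score was not tested, and without HI calf 7 r was 0.725 and 0.784 and neither passed. In these calves, 14 of 36 relations to the 4 lists passed, 9 positive and 5 negative, and 2 did so without HI calf 7. Among 1870 relations of tested miRNAs to these lists in the same calves, 23.6% had an r at least as far from 0 as the weakest of the 14. In the 21 calves, where 10 of 36 passed, that share was 10.1%. The makeup of each piece of tissue was not measured, and its part in these relations was not tested.

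The miRNAs whose levels followed each member most closely, among 465 tested miRNAs that are no member, were ranked by Spearman rho over the 21 calves. For miR-9-5p these were miR-338 (rho = 0.888), miR-502a (0.866) and miR-219-3p (0.849), and for miR-9-3p miR-219-5p (0.803), miR-34a (0.784) and miR-20b (0.775). Members of the oligodendrocyte list are thus among the closest to both arms of miR-9. The closest to miR-124a were miR-26a (0.755), miR-3613a (0.686) and miR-216b (0.684). For miR-128 they were miR-139 (0.801), miR-433 (0.674) and miR-412 (0.660), and for miR-138 miR-487b (0.757), miR-139 (0.701) and miR-497 (0.695), so that miR-139 is shared by both. The closest to miR-137 were miR-149-5p (0.858), miR-935 (0.857) and miR-1343-3p (0.845). For miR-153 they were miR-323b-3p (0.858), miR-2320-5p (0.83) and miR-499 (0.810), and miR-323b-3p (0.779) also followed miR-129-3p, after miR-1306 (0.870) and miR-1247-5p (0.787). The closest to miR-129-5p were miR-3431 (0.886), miR-452 (0.882) and miR-376e (0.832). These values describe 21 calves and share their libraries.

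The ratio of the 2 arms of a precursor is a measure within a library and does not depend on its scaling. For miR-9, the 5p arm exceeded the 3p arm in all 30 calves, from 53.5-fold in MOD calf 5 through a median of 62.7-fold to 97.7-fold in HI calf 3. The median ratio was 75.3 in HI calves (54.3 to 97.7) and 60.8 in MOD calves (53.5 to 86.0). The log2 difference, HI minus MOD, was 0.20 (two-sided permutation test, p = 0.0334), and it failed the adjustment over the 2 ratios tested (adjusted p = 0.0669). Within the deeper libraries the difference was 0.19 (3 HI against 6 MOD, exact permutation p = 0.0238) and within the shallower ones 0.17 (12 HI against 9 MOD, exact permutation p = 0.18). It was 0.26 in the 9 calves with high pituitary scores (exact permutation p = 0.183) and 0.17 in the other 21 (permutation test, p = 0.129). Of 42 miRNAs with both arms tested, 4 (9.52%) had an unadjusted p under 0.05. The ratio lay along the animal codes, at 81.3 to 97.7 in the 9 lowest codes and 53.5 to 75.3 in the other 21, which do not overlap. Such a split was present in 2 of 42 ratios (4.76%), the other being that of miR-193a. Within the code classes the diets differed by 0.03 (7 HI against 2 MOD, exact permutation p = 0.639) and 0.04 (8 HI against 13 MOD, exact permutation p = 0.499) on the log2 scale. The labels do not say what the codes mark, and the part of whatever they mark in the ratio was not tested.

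For miR-129 the 2 arms were nearly balanced. The 5p arm exceeded the 3p arm in 27 of 30 calves, with a ratio from 0.888 in MOD calf 5 through a median of 1.41 to 2.29 in HI calf 2. The log2 difference between the diets was 0.12 (two-sided permutation test, p = 0.367, adjusted p = 0.367). It was 0.02 within the deeper and 0.04 within the shallower libraries, and -0.08 within the 9 lowest codes and -0.0027 within the other 21. The median ratio was 1.18 in the deeper and 1.48 in the shallower libraries, with 5p above 3p in 6 of 9 and in 21 of 21.

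**Figure D5:**
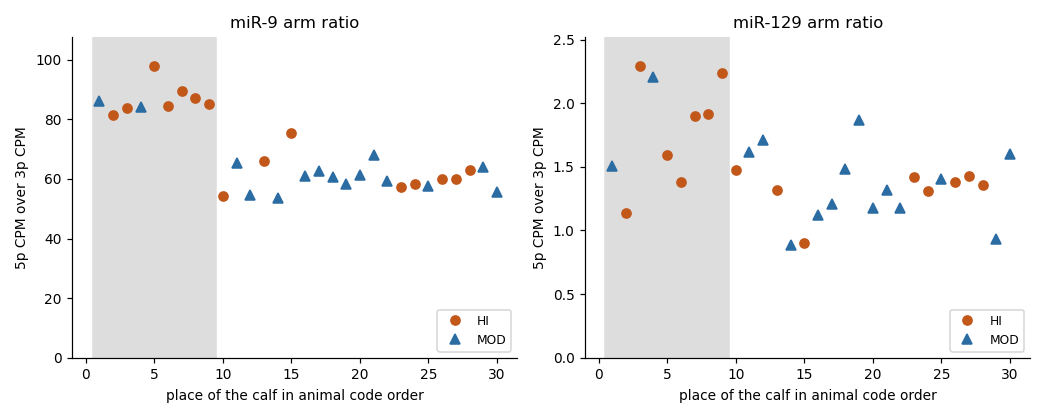
Ratio of 5p CPM to 3p CPM for miR-9 (left) and miR-129 (right) in every calf, on linear axes from 0, against the place of the calf in the order of animal codes (15 HI and 15 MOD calves, with the 9 lowest codes on a grey band). The 9 calves on the band hold the highest miR-9 ratios, from 81.3 to 97.7, and the miR-129 ratios of the diets overlap.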

How the data were processed

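The authors trimmed adapters with Cutadapt, kept reads of 15 to 28 bases, discarded other short RNA species and used miRDeep2 with Bowtie on ARS-UCD1.2 to count known bovine miRNAs. The deposited signal values, 1 per calf and mature miRNA, are called counts but are decimals in the form of CPM over TMM-scaled library sizes. Reads were recovered from the smallest step of each library, and 94.5% to 97.9% of values under 200 reads came out whole within 0.02 reads. HI calf 6 was left out of edgeR, DESeq2 and voom, which ran on 29 calves, after a separate check whose values are not given here. By the share given here it had 95.5%, above the kept MOD calf 1 (94.5%), HI calf 15 (94.8%) and HI calf 5 (94.9%). The submitters' labels name a stranded RNA kit and the study's methods a small RNA kit.

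limma was fitted on log2(CPM + 0.25) for 476 miRNAs, those that reached 1.16 CPM (10 reads in a library of median depth) in 14 or more calves, with Benjamini-Hochberg adjustment. The pseudocount understates changes of miRNAs with few reads, which none of the members is. Single values were compared by permutation tests, two-sided with 100000 resamples, and by exact ones within classes of calves and over 9 calves. Correlations were adjusted over 72 relations per family. After centring on the code class, values were permuted over all calves of a range, so those p-values can be too small. The order of levels, the arm ratios and the relations are adjusted separately. The members, the 7 lists of cell type miRNAs, the animal code class and the tests were chosen with earlier results of these data known. The miRNAs named are the members, the 3 closest to each, and the one with the smallest p of each list. The 21 and 9 calves were split at the largest gap of the pituitary list score, and those of the depth classes at that of the read total. No 2 libraries were alike within sampling noise. Calves are the replicates. Code was tested on simulated data. mRNA and protein data were not analysed here, and no miRNA sequence was used. Software was R 4.3.3, limma 3.58.1, edgeR 4.0.16, DESeq2 1.42.0, sva 3.50.0, Python 3.11.15 and scipy 1.17.1.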

Additional observations from a re-analysis of the deposited data

How the results depend on the processing

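No member was called between the diets under any of 19 alternatives (normalization, filter, pseudocount, test, covariates, samples, thresholds) or on leaving out each of 30 calves. The number called among all miRNAs was 1 by DESeq2 and with 1 surrogate variable and 0 or 1 on leaving out 1 calf, which in each case was miR-2419-3p. Signs of small differences turned; the cause was not tested. The log2 fold change of miR-124a was 0.0862 by edgeR, 0.0973 by DESeq2, 0.0583 with the code class, 0.0525 with the pituitary score, 0.0619 with a surrogate variable, 0.1059 without the 9 calves of high pituitary score, and -0.2023 to 0.1177 on leaving out 1 calf. That of miR-9-5p was 0.0379 with upper quartile factors, 0.1029 by edgeR, 0.1157 by DESeq2, 0.0320 with voom, 0.0273 with the depth class, 0.0743 with the pituitary score, 0.0802 with a surrogate variable, 0.1390 without the 9 calves, 0.0345 without HI calf 7 and MOD calf 4 (chosen after seeing the data), and -0.0996 to 0.1254 on leaving out 1 calf. Without the 9 calves miR-128 was at 0.0453 and miR-129-5p at -0.0915. With the code class miR-137 was at 0.0057, miR-138 at 0.0084 and miR-129-3p at 0.0710, and the latter was at 0.0105 with upper quartile factors and -0.0822 to 0.0296 on leaving out 1 calf. Both miR-9-3p and miR-153 kept their sign in all of these alternatives and runs, although miR-9-3p was at -0.0602 without HI calf 7. Within classes of calves their signs also turned. In the deeper libraries miR-9-3p was at 0.0562, and in the 21 calves outside the lowest codes it was at 0.0538 and miR-153 at 0.0072. The miR-9 arm ratio difference was 0.1712 to 0.2347 on leaving out 1 calf and passed an adjusted p under 0.05 (permutation test) without any of 7 calves: HI calves 8, 11, 12, 13 and 14 and MOD calves 1 and 2. As residuals of the code class it was 0.0309, and that of miR-129 turned to -0.0178. On leaving out 1 calf the latter was 0.0752 to 0.1725. In the 9 calves, leaving out HI calf 7 lowered the member pairs passing from 21 to 9 and the relations to lists from 14 to 2. Other normalizations, pseudocounts and code centring gave 14 to 24 passing pairs and 8 to 12 list relations in the 21 calves, and 21 to 22 pairs and 13 to 16 list relations in the 9 calves. No paired analysis was possible because each calf belongs to 1 diet and the numbers only name calves. The study balanced the diets for farm and sire among others, but the labels give neither, so they could not be terms. Depth limits none of the members, which had 714 or more reads in every library, and intervals cover the spread between calves.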
